A study of Mus musculus with 26 samples.

Results

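Withdrawal after cocaine self-administration is described here from 8 of the 26 libraries of the series, all of 1 library set: 4 nonescalating withdrawal libraries (numbers 2079 to 2082, called withdrawal replicates 1 to 4) and 4 nonescalating libraries without withdrawal (numbers 2071 to 2074, called nonescalating replicates 1 to 4). They were chosen by the library numbers and conditions in the sample titles, and all 8 were counted with the same gene table. The study used adult mice of the Drd2-EGFP/Rpl10a line CP101, given as FVB/N-Swiss Webster crossed for at least 9 generations to C57BL/6, with intravenous self-administration of saline or cocaine in long sessions. Ribosomes carrying the EGFP tag were pulled from dorsal striatum with anti-EGFP antibodies (translating ribosome affinity purification), and the RNA on them was sequenced. All 8 libraries share the line, the tissue, the purification, cocaine and the nonescalating intake group, so the label that differs is withdrawal. The sources used here do not give its length, the animals' sex or whether a library is 1 animal or a pool, so a p-value reflects only how far these 8 libraries scatter. The tag follows the Drd2 promoter, and the labels name medium spiny neurons as the cells profiled.

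Neurons of the striatal indirect pathway carry the dopamine D2 receptor, which lowers cyclic AMP, and the adenosine A2a receptor, which raises it, and they release GABA together with enkephalin. Cocaine blocks the reuptake of dopamine and so raises its level around them. Withdrawal is the period after drug taking stops, in which lasting changes at striatal synapses are commonly sought, while immediate early genes follow recent neuronal activity within minutes to hours.

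Gene counts ran from 9753336 to 15780028 in the withdrawal libraries and from 6564551 to 11793565 in the nonescalating libraries. The purified RNA carried the labelled cell type's markers in all 8: the summed level of 12 indirect-pathway markers lay between 6126 and 16240 CPM (read counts per gene scaled to a common library size) in withdrawal and between 6419 and 15300 CPM in nonescalating libraries, and that of 10 direct-pathway markers between 183.0 and 386.1 CPM in withdrawal and between 203.0 and 360.4 CPM in nonescalating libraries. Withdrawal replicate 1 stood apart, with 60.7% of its uniquely aligned reads in no gene, against 28.7% to 30.9% in the other withdrawal libraries and 21.2% to 45.0% in the nonescalating libraries. It also had the highest summed level of 16 endothelial and mural cell markers, 7720 CPM, against 651.6 to 1533 CPM in the other withdrawal libraries, while nonescalating replicate 3 held 5717 CPM and the other nonescalating libraries 351.8 to 1645 CPM. The nuclear RNA Malat1 took 3.997% of gene counts in withdrawal replicate 1 and 0.556% to 0.805% in the other withdrawal libraries, against 0.465% to 1.88% in nonescalating libraries. No difference between the groups passed the threshold for gene counts (adjusted p = 0.343), reads outside genes, ambiguous reads or the Malat1 share (adjusted p = 0.771 for each of these 3) in two-sided exact permutation tests, whose smallest possible p is 0.0286 before adjustment; 1 measure alone could reach no lower than 0.114 after it. The first principal component (46.4% of the variance) ran from nonescalating replicate 2 at one end to withdrawal replicate 1 and nonescalating replicate 3 at the other, and the second (19.95%) set withdrawal replicate 2 apart. Several lists are therefore also given without withdrawal replicate 1. Those fits keep nonescalating replicate 3, the library most correlated with it (Pearson 0.913 on log2 CPM), so they unbalance the groups.

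**Figure D1:**
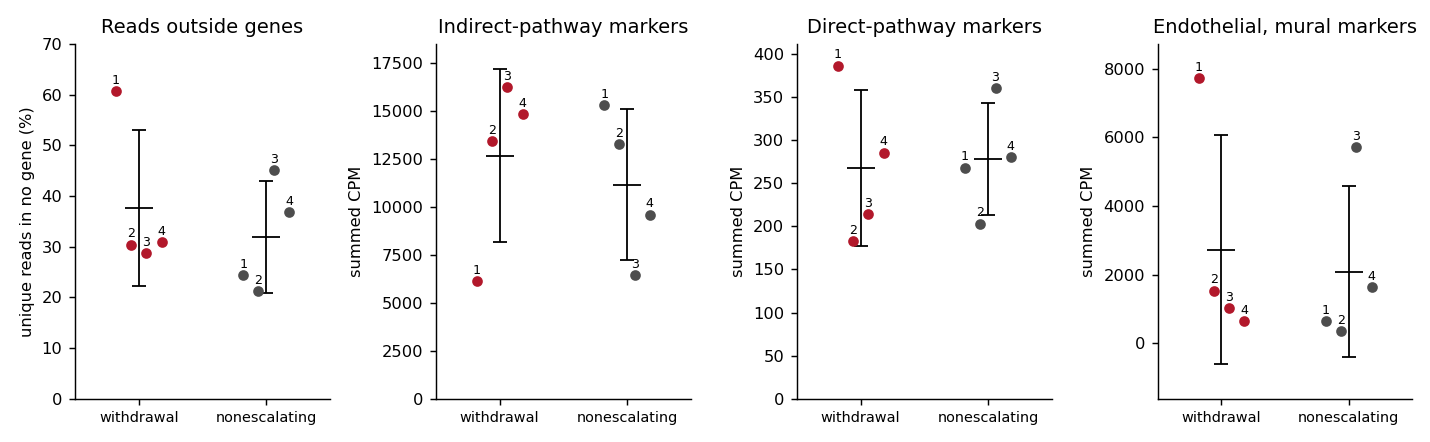
Each point is 1 library, numbered by replicate, withdrawal in red on the left and nonescalating in grey on the right; the line and bars are the mean and SD (n = 4 each). The panels show the percentage of uniquely aligned reads in no gene and the summed CPM of indirect-pathway, direct-pathway and endothelial or mural markers; withdrawal replicate 1 has 60.7% of reads in no gene and 7720 CPM of endothelial and mural markers.

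No gene was called between withdrawal and nonescalating libraries by edgeR's quasi-likelihood test at an adjusted p under 0.05 (0 of 13572 genes tested, 0%), and the lowest adjusted p was 0.999948. At an unadjusted p under 0.05 there were 198 genes (1.46%), 129 with a higher and 69 with a lower level in withdrawal. That share is below the 0.05 that the threshold would give if no gene differed. All 4 withdrawal libraries lay above all 4 nonescalating libraries for 118 genes (0.869%) and below them for 97 genes (0.715%). These are 215 genes of 13572, where regrouping the libraries at random would separate a gene with a probability of 0.0286. DESeq2 called 2 genes, both lower in withdrawal (0.00971%): Zdhhc22 and Particl. limma voom with library weights called 0, with 840 at an unadjusted p under 0.05. Replicates varied widely, with a biological coefficient of variation of 0.72, and the median standard error of a gene's log2 fold change was 0.52. In simulated counts with this spread, the edgeR test called 0% of 2-fold and 17% of 4-fold changes. The genes below are therefore given as values. They are the 5 with the lowest p in each direction among genes averaging 5 CPM or more, the comparison's marker genes Pvt1 and Heatr6, and the leading members of gene lists.

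Among genes with higher values in withdrawal, Heatr6, which encodes a HEAT-repeat protein (chr11:83753696-83783754, GRCm38), had 48.2, 83.4, 66.1 and 50.0 CPM in withdrawal libraries, against 19.5, 24.6, 18.8 and 32.5 CPM in nonescalating libraries. All withdrawal values lay above all nonescalating values, with a log2 fold change of 1.38 ± 0.32 (SE) and an unadjusted edgeR p of 0.00143. Shank3, the scaffold of the postsynaptic density that links glutamate receptors to the actin skeleton (chr15:89499623-89560261), had 341, 469, 346 and 333 CPM in withdrawal libraries, against 194, 248, 213 and 193 CPM in nonescalating libraries. Its groups did not overlap either, and the SE was the smallest of these 5 genes, with a log2 fold change of 0.81 ± 0.22 and an unadjusted p of 0.00419. Maml3, a Mastermind-like coactivator of Notch signalling, had 34.1, 78.3, 28.9 and 33.4 CPM in withdrawal libraries, against 4.16, 13.9, 12.9 and 19.97 CPM in nonescalating libraries. Withdrawal replicate 2 was highest for all 3 of these genes. Nlrx1, a mitochondrial member of the NOD-like receptor family, had 11.4, 25.9, 10.7 and 7.89 CPM in withdrawal libraries, against 1.04, 3.26, 1.73 and 5.02 CPM in nonescalating libraries. Fam149a had 7.63, 26.2, 22.4 and 15.4 CPM in withdrawal libraries, against 3.97, 7.003, 5.06 and 4.82 CPM in nonescalating libraries. Neither overlapped between groups, though the lowest withdrawal value of Fam149a was close to its highest nonescalating value. Across the other settings and left-out libraries tried, these 5 log2 fold changes kept a positive sign, Heatr6 between 1.06 and 1.56 and Shank3 between 0.66 and 0.90. Those fits reuse the libraries in which the 5 genes were picked, so they are no independent check.

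Among genes with lower values in withdrawal, Zdhhc22, of the protein palmitoyltransferase family (chr12:86980763-86990430), had 0.636, 0.683, 0.960 and 2.03 CPM in withdrawal libraries, against 10.5, 21.2, 7.06 and 5.51 CPM in nonescalating libraries. Its groups did not overlap, on few reads, 52 counts in all withdrawal libraries and 396 in all nonescalating libraries. The log2 fold change was -3.35 ± 0.75, with an unadjusted edgeR p of 0.00113. Zdhhc22 passed the filter on low counts only through the nonescalating group, where it is high. It dropped out of the fit that asked for 10 counts in every library. Its fold changes and p-values, here and below, are therefore given as values only. Pvt1, a long noncoding RNA gene that neighbours Myc (chr15:62037986-62378096), had 1.18, 1.16, 1.44 and 2.11 CPM in withdrawal libraries, against 5.95, 22.8, 3.06 and 4.23 CPM in nonescalating libraries. Nonescalating replicate 2 held most of that group's signal, and without it the log2 fold change was -1.57; the groups did not overlap (log2 fold change -2.60 ± 0.82, with 71 counts over the withdrawal and 318 over the nonescalating libraries). Particl had 2.81, 1.16, 1.15 and 2.44 CPM in withdrawal libraries, against 10.4, 17.1, 12.5 and 7.48 CPM in nonescalating libraries. This noncoding RNA (chr6:72439051-72440610) overlaps Mat2a (chr6:72432799-72439558) on the other strand over part of its length. The strand setting of the counting is not given, so how reads in the shared stretch were assigned is not known. Dcun1d5, which helps attach NEDD8 to cullins, had 3.72, 4.37, 8.35 and 5.04 CPM in withdrawal libraries, against 21.8, 20.6, 12.4 and 9.74 CPM in nonescalating libraries. Phf5a, a subunit of the splicing factor SF3b, had 13.3, 8.95, 11.1 and 15.4 CPM in withdrawal libraries, against 56.0, 25.4, 22.4 and 20.6 CPM in nonescalating libraries. No withdrawal value of either gene reached the lowest nonescalating one, and without nonescalating replicate 1 the log2 fold change of Phf5a was -0.89, against -1.35 with it. The voom fit gave the values nearest 0 for 5 of these genes: -2.40 for Zdhhc22, -2.34 for Particl, -1.48 for Pvt1, -0.90 for Dcun1d5 and -0.87 for Phf5a.

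**Figure D2:**
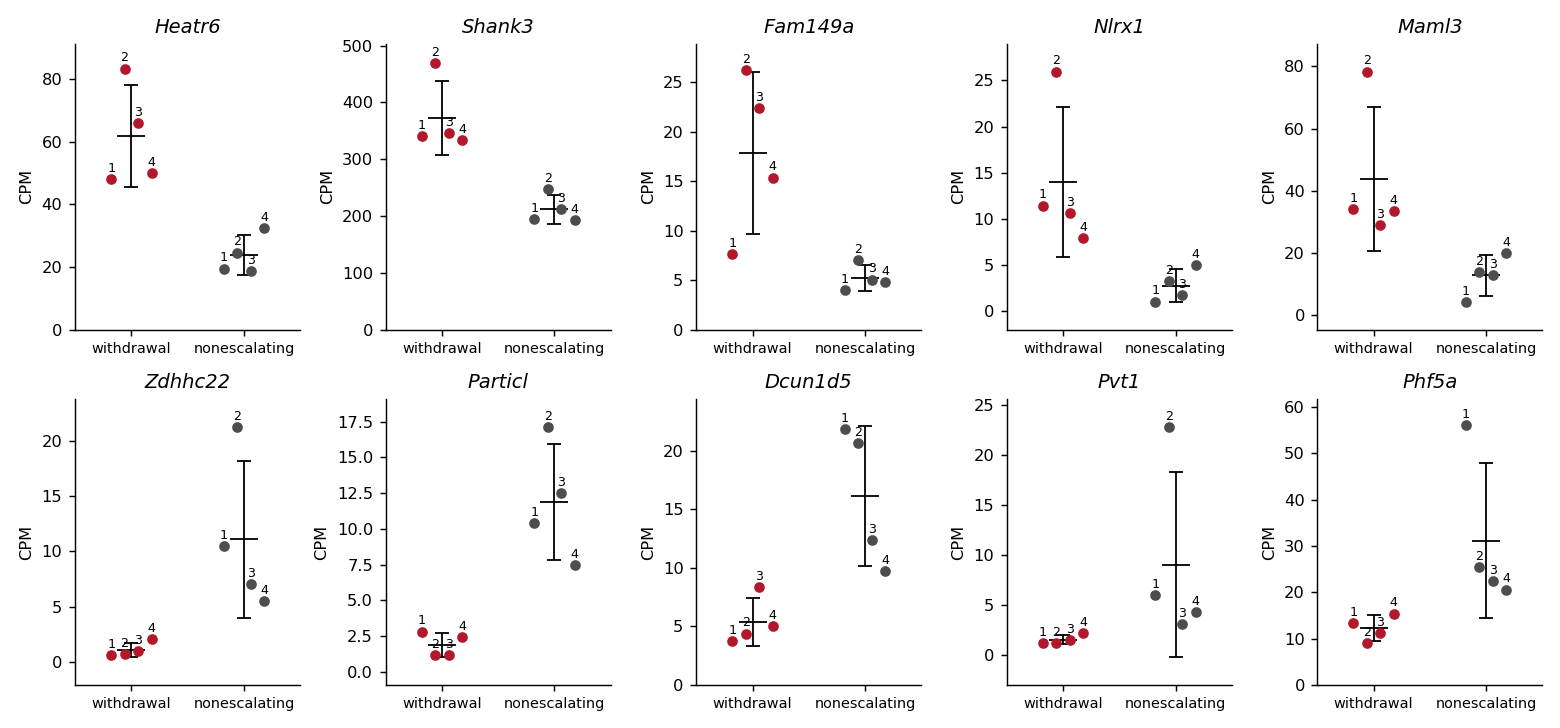
CPM of the 10 genes named above in each library, numbered by replicate, with withdrawal in red on the left and nonescalating in grey on the right; the line and bars are the mean and SD (n = 4 each). The groups do not overlap in any panel; withdrawal replicate 2 is highest for all 5 genes of the upper row, and 1 nonescalating library stands far above the rest for Pvt1 (22.8 CPM) and Phf5a (56.0 CPM).

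The immediate early genes, which encode activity-induced transcription factors and signalling regulators, had the highest median fold change of the lists with more than 10 genes tested. Of the 28 on the list, 24 passed the filter on low counts, and none was called. Fold changes were positive for 19 and negative for 5, with a median log2 fold change of 0.56, against 7614 positive and 5958 negative and a median of 0.07 over all genes tested. Nr4a1, an orphan nuclear receptor, had 34.4, 305, 129 and 68.0 CPM in withdrawal libraries, against 47.6, 46.4, 35.3 and 23.4 CPM in nonescalating libraries. Fosl2, a Fos-family partner of Jun, had 203, 98.3, 63.9 and 87.3 CPM in withdrawal libraries, against 87.3, 39.6, 42.1 and 26.8 CPM in nonescalating libraries. Dusp1, a phosphatase that switches off MAP kinases, had 77.7, 188, 170 and 93.1 CPM in withdrawal libraries, against 86.7, 76.1, 55.5 and 73.9 CPM in nonescalating libraries. Each gene's groups overlapped, and the high libraries differed: withdrawal replicate 2 for Nr4a1 and Dusp1, withdrawal replicate 1 for Fosl2. Arc, the synaptic protein whose RNA travels to active dendrites, was chosen after its values were seen and had 40.7, 90.1, 139 and 53.02 CPM in withdrawal libraries, against 21.7, 23.3, 14.4 and 73.7 CPM in nonescalating libraries. The log2 fold changes were 1.81 ± 0.59 for Nr4a1, 1.21 ± 0.45 for Fosl2, 0.86 ± 0.33 for Dusp1 and 1.27 ± 0.56 for Arc (SE), with unadjusted p of 0.0116, 0.0231, 0.0254 and 0.0466 by edgeR. Without withdrawal replicate 2 the value for Nr4a1 was 1.05, and without withdrawal replicate 1 that for Fosl2 was 0.77. The value for Arc was 2.02 without nonescalating replicate 4. Leaving out withdrawal replicate 1, 18 of the 24 were positive with a median of 0.48. Fos itself had 41 counts over the 8 libraries and was not tested.

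The promoter windows of the first 3 of these genes are shown because cyclic AMP, which the dopamine and adenosine receptors of these neurons control, acts on such genes through the cyclic AMP response element. Of the 4 genes, 3 were found in the RefSeq promoter table for GRCm38.p6, which gives 250 bases before to 50 bases after the start. Letters in capitals mark the core TGACG of the element on either strand, and the full element TGACGTCA, which holds the core on both strands.
Nr4a1, chr15:101266596-101266895, plus strand: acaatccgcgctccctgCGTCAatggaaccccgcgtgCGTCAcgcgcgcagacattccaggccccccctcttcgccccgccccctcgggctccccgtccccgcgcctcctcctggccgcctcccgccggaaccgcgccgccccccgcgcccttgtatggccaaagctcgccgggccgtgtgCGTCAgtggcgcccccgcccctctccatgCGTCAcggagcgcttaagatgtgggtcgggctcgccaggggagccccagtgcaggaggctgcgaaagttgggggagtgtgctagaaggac
Dusp1, chr17:26508423-26508722, minus strand: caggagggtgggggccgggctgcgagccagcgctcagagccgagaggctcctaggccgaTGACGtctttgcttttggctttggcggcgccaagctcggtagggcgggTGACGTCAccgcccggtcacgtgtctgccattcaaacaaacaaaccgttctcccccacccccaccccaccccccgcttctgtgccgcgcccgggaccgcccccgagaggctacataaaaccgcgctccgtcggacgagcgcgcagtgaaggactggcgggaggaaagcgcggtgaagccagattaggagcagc
Fosl2, chr5:32136222-32136521, plus strand: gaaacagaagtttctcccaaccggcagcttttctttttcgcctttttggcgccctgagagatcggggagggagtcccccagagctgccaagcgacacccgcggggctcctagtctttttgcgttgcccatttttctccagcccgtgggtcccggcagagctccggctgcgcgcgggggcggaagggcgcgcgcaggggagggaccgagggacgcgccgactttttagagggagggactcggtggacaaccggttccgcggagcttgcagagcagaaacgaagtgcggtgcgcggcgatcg
The Nr4a1 window held 4 cores and no full element. The Dusp1 window held 1 full element, its first base at position -143 from the start site, and 1 further core, and the Fosl2 window held no match to either. Over all 32851 promoters of the table, 1.79% held the full element and 20.8% the core. None of the 3 windows held a CArG box, the site of serum response factor, which 1.63% of all promoters held. These are matches of letters only.

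**Figure D3:**
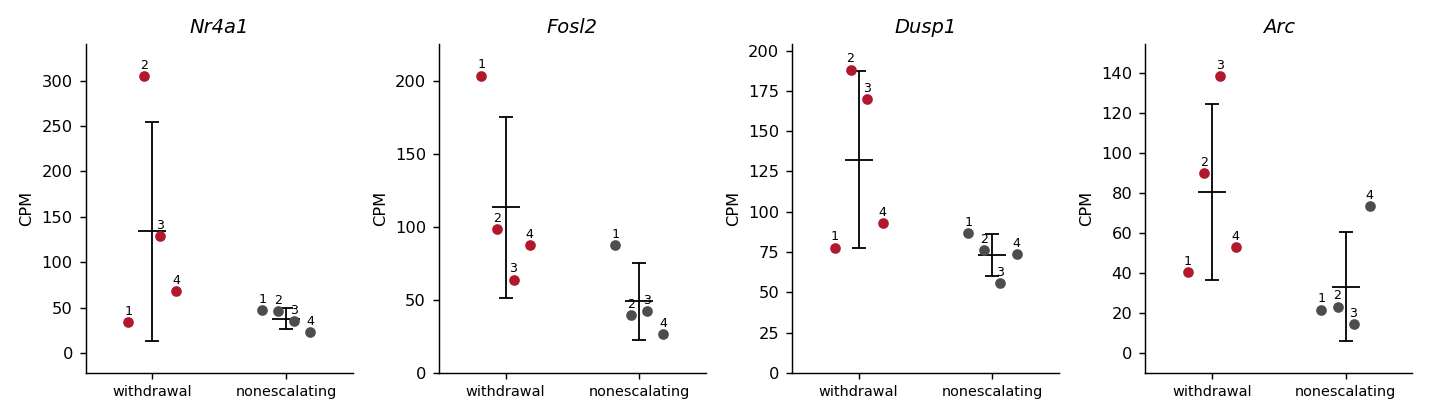
CPM of Nr4a1, Fosl2, Dusp1 and Arc in each library, numbered by replicate, with withdrawal in red on the left and nonescalating in grey on the right; the line and bars are the mean and SD (n = 4 each). Withdrawal values reach 305 CPM for Nr4a1 and 139 CPM for Arc, and the groups overlap in every panel.

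Genes that define the indirect pathway had no called difference. Drd2 averaged 4828 ± 1928 CPM in withdrawal and 3840.3 ± 1933 CPM in nonescalating libraries (SD, n = 4 each), a log2 fold change of 0.33 ± 0.46 (SE), with 2284, 5358, 6924 and 4744 CPM in withdrawal libraries, against 6331, 4118, 1716 and 3197 CPM in nonescalating libraries. Adora2a had a log2 fold change of 0.20 ± 0.42, Penk, the enkephalin precursor, 0.02 ± 0.41, and Rpl10a, the gene of the tagged ribosomal protein, 0.37 ± 0.34. The 95% intervals of these values are wide, for example -0.69 to 1.35 for Drd2. Drd1, the direct-pathway receptor, had 18.2, 24.9, 24.01 and 30.7 CPM in withdrawal libraries, against 31.3, 15.5, 26.5 and 24.9 CPM in nonescalating libraries. Fold changes were positive for 10 of 12 indirect-pathway markers (median 0.22) and for 3 of 10 direct-pathway markers (median -0.25), with 0 called in either list. Without withdrawal replicate 1 they stood at 10 of 12 (median 0.45) and 2 of 10 (median -0.26), and the log2 fold change was 0.56 for Drd2, 0.45 for Adora2a, 0.27 for Penk and 0.57 for Rpl10a. Leaving out other single libraries moved Drd2 between 0.09 (without nonescalating replicate 3) and 0.71 (without nonescalating replicate 1). Withdrawal replicate 1 had the lowest level of Drd2, Adora2a and Penk in its group, 2284, 698 and 1803 CPM. In bulk libraries such as these, fewer cells of a type and less RNA per cell cannot be told apart.

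Lists of dopamine signalling and of the synapse had small, mostly positive medians and no call. In the list of dopamine and adenosine receptors and the Golf cascade, 16 of 19 fold changes were positive (median 0.16), and 18 of 19 (median 0.41) without withdrawal replicate 1. Drd3, the D3 receptor gene, had 0.545, 48.8, 3.94 and 5.61 CPM in withdrawal libraries, against 1.42, 0.121, 3.197 and 1.67 CPM in nonescalating libraries, so withdrawal replicate 2 set most of its mean; without it the log2 fold change was 1.09, against 3.197 with it. Among postsynaptic scaffolds and actin regulators 21 of 30 were positive (median 0.15), Shank3 the only one whose groups did not overlap (0.869% of all genes tested lay apart in that direction). Positive fold changes were counted for 17 of 25 synaptic vesicle release genes (median 0.08), 16 of 24 potassium channels (median 0.16), 16 of 25 calcium, sodium and HCN channels (median 0.07), 15 of 24 AMPA, NMDA and kainate receptor genes (median 0.10) and 9 of 18 GABA receptor and synthesis genes (median -0.02). Without withdrawal replicate 1 the same lists stood at 24 of 25, 24 of 24, 22 of 25, 20 of 24 and 16 of 18. Their medians were 0.31, 0.37, 0.27, 0.32 and 0.23. The scaffolds stood at 27 of 30 with a median of 0.34, while the median over all genes was -0.04. Nonescalating replicate 3, the lowest of its group for the dopamine and adenosine list (12220 CPM summed), stayed in that fit. With all 23 purified libraries in a fit with a term for library set, the medians of the receptor, vesicle, scaffold and potassium channel lists were negative, -0.11 for the dopamine and adenosine list, -0.16 for vesicle release, -0.08 for scaffolds and -0.09 for potassium channels; without withdrawal replicate 4 the potassium channel median was -0.02. Dagla, the enzyme that makes the endocannabinoid 2-arachidonoylglycerol, had 100, 261, 278 and 264 CPM in withdrawal libraries, against 161, 153, 97.0 and 124 CPM in nonescalating libraries. Its level in withdrawal replicate 1 lay within the nonescalating range and the other 3 withdrawal libraries lay above it, with a log2 fold change of 0.76 ± 0.34. Among neurotrophins and their receptors, 6 of 7 were positive (median 0.34). Ngfr, the p75 neurotrophin receptor, had 2.27, 2.87, 2.59 and 1.06 CPM in withdrawal libraries, against 0, 0, 0 and 0.197 CPM in nonescalating libraries. This rests on 107 counts over the withdrawal and 2 over the nonescalating libraries, and the gene passed the filter only through the withdrawal group, so no ratio is drawn from it.

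Lists of the proteasome, respiration and the ribosome had negative medians, again with no gene called. Of the 31 proteasome subunits, 27 had a negative fold change (median -0.31), and of the 75 nuclear-encoded oxidative phosphorylation genes 62 did (median -0.27). Of the 76 cytosolic ribosomal protein genes tested, 55 were negative (median -0.19). Psmb1, a core proteasome subunit, had 18.6, 23.8, 30.7 and 26.3 CPM in withdrawal libraries, against 50.2, 46.1, 27.6 and 32.9 CPM in nonescalating libraries. Ndufa2, a subunit of respiratory complex I, had 8.63, 19.6, 13.8 and 30.1 CPM in withdrawal libraries, against 45.0, 59.2, 19.7 and 24.6 CPM in nonescalating libraries. Rps13, of the small ribosomal subunit, had 9.35, 7.31, 10.1 and 17.9 CPM in withdrawal libraries, against 25.3, 20.3, 15.1 and 21.0 CPM in nonescalating libraries. For all 3 genes the groups overlapped, and nonescalating replicates 1 and 2, the libraries with the fewest reads outside genes, were the highest apart from Rps13, for which replicates 1 and 4 were. Without withdrawal replicate 1 the medians were -0.18 for the proteasome, -0.11 for oxidative phosphorylation and -0.06 for ribosomal proteins, and the voom fit turned the ribosomal median to 0.04, with 42 of 76 positive. The part of reads outside genes in these medians was not tested. Chaperones had 20 of 30 negative (median -0.14), with Hspa12a, an HSP70-family gene, at 134, 158, 165 and 189 CPM in withdrawal libraries, against 220, 348, 183 and 208 CPM in nonescalating libraries. Without withdrawal replicate 1 chaperones had 15 of 30 negative (median -0.02), and without nonescalating replicate 2 the log2 fold change of Hspa12a was -0.33, against -0.57 with all 8. Genes of the unfolded protein and integrated stress response had 15 of 22 negative (median -0.15).

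**Figure D4:**
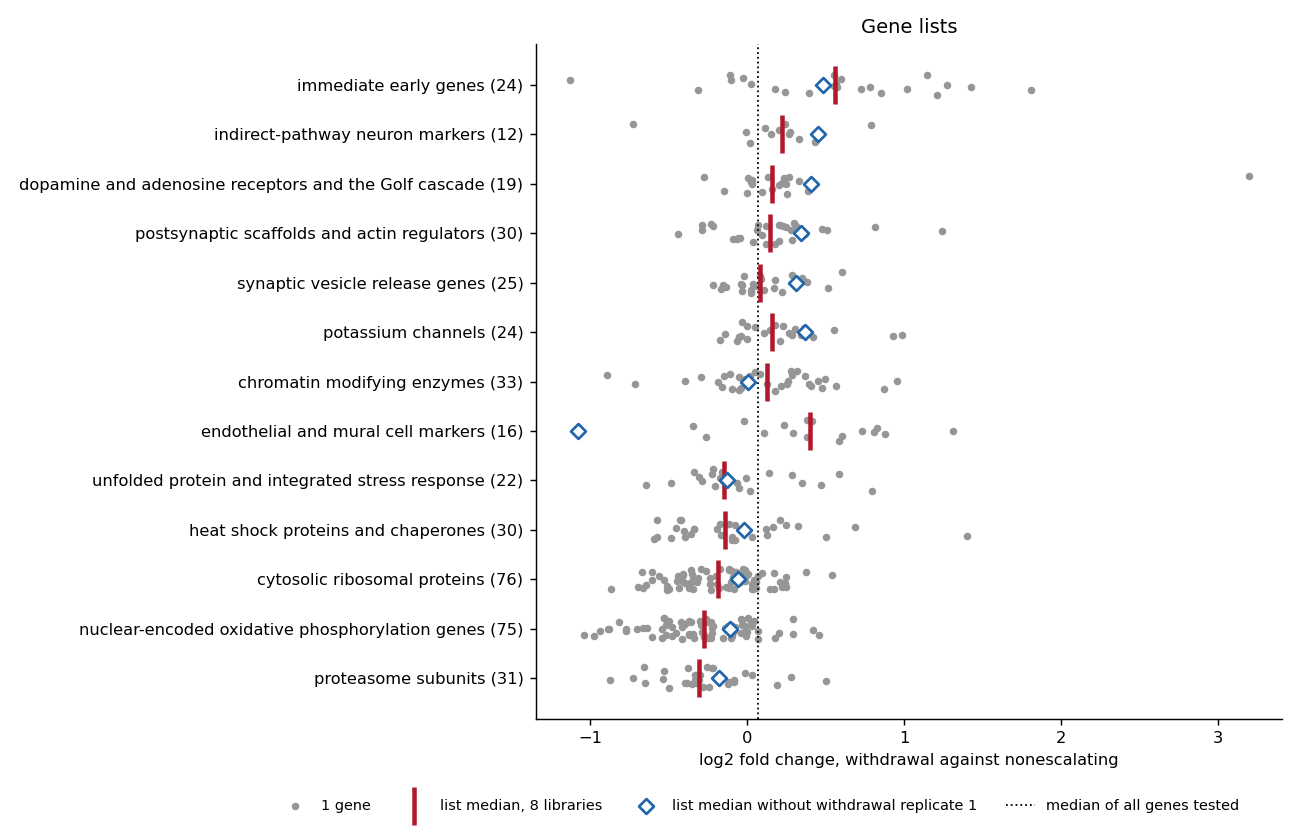
Log2 fold changes of withdrawal against nonescalating libraries for the tested members of 13 lists (grey points, number of genes in brackets), with the list median (red bar), the median without withdrawal replicate 1 (open diamond) and the median of all genes tested (dotted line, 0.07). Immediate early genes have the highest median, 0.56, and proteasome subunits the lowest, -0.31; the endothelial and mural median is 0.40, and -1.08 without withdrawal replicate 1.

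Cholesterol synthesis enzymes split in direction, with 9 of 22 positive (median -0.18), and 10 of 22 (median -0.08) without withdrawal replicate 1. Mvk, mevalonate kinase near the start of the pathway, had 19.5, 21.8, 8.07 and 17.1 CPM in withdrawal libraries, against 4.63, 1.93, 4.53 and 7.77 CPM in nonescalating libraries. Lss, which closes the sterol ring to make lanosterol, had 20.2, 11.5, 25.2 and 18.5 CPM in withdrawal libraries, against 27.6, 34.6, 37.7 and 33.6 CPM in nonescalating libraries. Neither enzyme's groups overlapped, Mvk higher and Lss lower in withdrawal, with a log2 fold change of 1.81 ± 0.56 for Mvk and -0.83 ± 0.34 for Lss. Msmo1, a later sterol oxidase, had 8.63, 10.1, 14.6 and 10.7 CPM in withdrawal libraries, against 40.9, 20.9, 12.4 and 17.4 CPM in nonescalating libraries, and its log2 fold change of -1.06 was -0.60 without nonescalating replicate 1. Chromatin modifying enzymes had 20 of 33 positive (median 0.12) and 2 genes with all withdrawal libraries above all nonescalating ones, which 0.869% of all genes tested had. Without withdrawal replicate 1 the list stood at 18 of 33 (median 0.003). Smarca4, the ATPase of the BAF remodelling complex, had 387, 540, 443 and 476 CPM in withdrawal libraries, against 328, 420, 266 and 294 CPM in nonescalating libraries. Kmt2a, a histone H3 lysine methyltransferase, had 790, 1103, 930 and 798 CPM in withdrawal libraries, against 662, 606, 769 and 716 CPM in nonescalating libraries. The ranges of Smarca4 overlapped and those of Kmt2a did not. The other gene without overlap was Tet1, which oxidizes methylated cytosine and was named after its values were seen, with 57.6, 59.5, 68.2 and 62.5 CPM in withdrawal libraries, against 56.9, 23.8, 48.5 and 52.3 CPM in nonescalating libraries, where replicate 2 was lowest (log2 fold change 0.45, and 0.24 without it). Core clock genes were evenly split, 10 of 20 positive (median -0.003), and so were glucocorticoid-responsive genes, 8 of 15 (median 0.03). Intraflagellar transport and cilium genes had 10 of 27 positive (median -0.10), genes of p53 and its targets, a list that holds Pvt1, 17 of 25 (median 0.21), opioid peptides and receptors 4 of 7 (median 0.02), and metabotropic glutamate and endocannabinoid genes 13 of 17 (median 0.05). Nuclear long noncoding RNAs had 4 of 10 positive (median -0.11).

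The summed levels of every list of other cells' markers overlapped between the groups. Endothelial and mural markers had 13 of 16 positive fold changes (median 0.40), but 1 of 16 (median -1.08) without withdrawal replicate 1. Interferon and antigen presentation genes had 16 of 25 (median 0.25), but 4 of 25 (median -1.24) without that library. Nonescalating replicate 3, with 5717 summed CPM of endothelial and mural markers and 947.3 CPM of interferon and antigen presentation genes, stayed in that fit. Astrocyte markers summed to 287.2 to 413.9 CPM in withdrawal and 301.5 to 477.5 CPM in nonescalating libraries, with 6 of 11 positive (median 0.08). Oligodendrocyte and myelin markers summed to 245.8 to 394.4 CPM in withdrawal and 258.1 to 384.3 CPM in nonescalating libraries, with 4 of 14 positive (median -0.10). Summed levels of oligodendrocyte precursor markers ran from 56.4 to 364.6 CPM in withdrawal and from 13.9 to 211.1 CPM in nonescalating libraries (5 of 6 positive, median 0.92), and those of microglia markers from 12.8 to 62.5 CPM in withdrawal and from 13.5 to 42.6 CPM in nonescalating libraries (6 of 7 positive, median 0.43). For cortical glutamatergic markers they ran from 20.2 to 59.7 CPM in withdrawal and from 3.97 to 53.8 CPM in nonescalating libraries (5 of 6 positive, median 0.66). Cholinergic interneurons also express Drd2, and their markers summed to 11.7 to 79.4 CPM in withdrawal and 31.2 to 48.5 CPM in nonescalating libraries (2 of 5 positive, median -0.58). Slc17a8, the vesicular glutamate transporter of these interneurons, had 3.27, 0.0683, 0.480 and 1.30 CPM in withdrawal libraries, against 15.4, 2.41, 9.99 and 4.52 CPM in nonescalating libraries, while Chat, their acetylcholine-synthesizing enzyme, had 7.90, 1.78, 8.74 and 7.24 CPM in withdrawal libraries, against 9.73, 14.8, 7.86 and 7.48 CPM in nonescalating libraries. The ranges of both overlapped. GABAergic interneuron markers summed to 74.8 to 108.2 CPM in withdrawal and 50.0 to 139.2 CPM in nonescalating libraries (5 of 6 positive, median 0.85), and ependymal markers to 4.96 to 6.45 CPM in withdrawal and 1.81 to 5.95 CPM in nonescalating libraries, with 1 of 8 tested. Among the defining markers, Calb2 of interneurons and Gbx2 of the cholinergic lineage had 0 counts in all 8 libraries.

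Another 5 withdrawal libraries of the nonescalating group (numbers 1829 to 1833, called set B) were counted with a different gene table and serve only as a check. They were set against the same 4 nonescalating libraries over the 31735 genes that both tables hold, so library set, gene table and withdrawal cannot be told apart, and both comparisons share their nonescalating libraries. Here edgeR called 17 of 13049 genes (0.13%), 5 higher (0.0383%) and 12 lower (0.092%). The 5 higher ones, named after their values were seen, were Adnp (log2 fold change 10.77), mKIAA0217, Ikzf5, Clk2 and 1 transcript with a clone name. The withdrawal libraries of the described set differed from those of set B under the same label by 6 called genes of 13013 (0.0461%). At an unadjusted edgeR p under 0.05 there were 2546 genes between the sets. Set B against nonescalating had 2350, and the main comparison 198. The 6 called genes were all among the 17 above, with the opposite sign, set B being the reference in this comparison. They included Adnp (log2 fold change -9.16, described set against set B) and mKIAA0217 (-10.96), so these differed between sets with withdrawal in both. Heatr6 had a log2 fold change of 0.65 ± 0.26 in set B, with 33.6 to 49.7 CPM in its withdrawal libraries and 19.8 to 34.4 CPM in nonescalating libraries on that scale, so 1 nonescalating library fell within the range of set B. Zdhhc22 had -2.83 ± 0.90, with 0 to 4.26 CPM in set B and 5.83 to 21.8 CPM in nonescalating libraries, which did not overlap. Its pass through the filter rested on the same nonescalating libraries, so this value is no separate support. Phf5a had -1.06 ± 0.37, Fam149a 0.93 ± 0.48, Nlrx1 0.84 ± 0.70 and Pvt1 -0.43 ± 0.61, while Maml3 stood at 0.21 ± 0.43 and Dcun1d5 at 0.01 ± 0.47. Shank3 had the opposite sign, -0.24 ± 0.18, with 133 to 230 CPM in set B and 201 to 254 CPM in nonescalating libraries. Particl was not in both tables. Dagla and Smarca4 also had the opposite sign in set B, -0.89 ± 0.24 and -0.64 ± 0.22. None of these genes was called in set B by edgeR, and DESeq2 called none of those to which it gave an adjusted p, which leaves out Nlrx1 and Zdhhc22.

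The immediate early genes had mostly negative fold changes in set B. Of the 24 tested, 19 had a negative fold change and the median was -0.42, against 0.56 in the described set, with a median over all genes of -0.03. Nr4a1 had -0.97 ± 0.63 in set B, Fosl2 -0.44 ± 0.56, Dusp1 -0.86 ± 0.23 and Arc -0.98 ± 0.49, none called by edgeR or DESeq2. Dusp1 had 27.4 to 57.5 CPM in set B libraries and 58.7 to 89.6 CPM in nonescalating libraries, so all 5 set B libraries lay below all 4 nonescalating libraries, while all 4 described withdrawal libraries lay above the second highest nonescalating one. Indirect-pathway markers were negative for 12 of 12 in set B (median -0.44), with Adora2a at -1.05 ± 0.33 and Drd2 at -0.77 ± 0.36. The ribosomal protein median was -0.53 in set B with 72 of 76 negative, and the oxidative phosphorylation median -0.35 with 60 of 75 negative. Ndufa2 had -1.80 ± 0.41 by edgeR, not called (adjusted p = 0.0822), while DESeq2 called it in set B (adjusted p = 0.00656). Reads in no gene made up 29.8% to 58.4% of uniquely aligned reads in set B, and gene counts 3613915 to 5849243. Their part in these values was not tested.

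**Figure D5:**
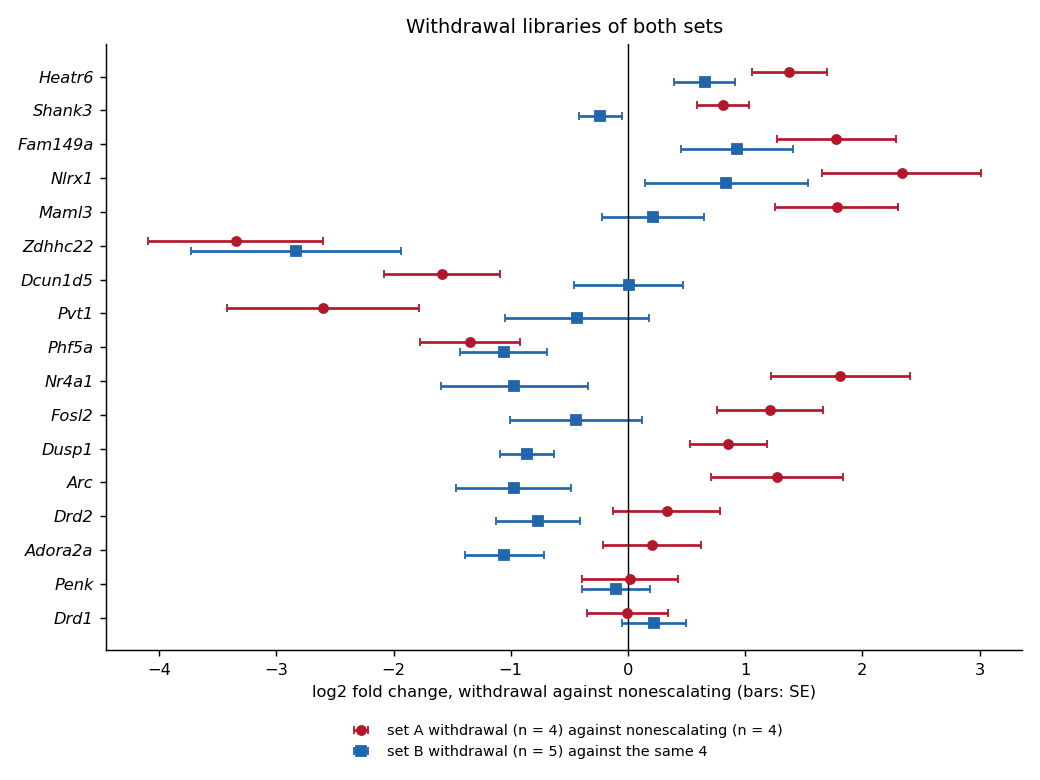
Log2 fold changes with SE bars for 17 genes, withdrawal against nonescalating, with the described withdrawal libraries (set A, red circles, n = 4) above those of set B (blue squares, n = 5); both use the same 4 nonescalating libraries. Zdhhc22 and Phf5a lie below 0 in both, at -3.35 and -2.83 and at -1.35 and -1.06, while Nr4a1, Fosl2, Dusp1 and Arc are above 0 in set A and below 0 in set B.

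Whether withdrawal differed more after cocaine than after saline was tested as an interaction in a fit of the 23 purified libraries with a term for library set. No gene was called by edgeR (0 of 16767, 0%), with 339 at an unadjusted p under 0.05, and DESeq2 called 4, all transcripts with clone names. For Heatr6 the difference, cocaine minus saline, was 0.74 (unadjusted p = 0.0866), for Pvt1 -1.62 (0.0605), for Shank3 0.58 (0.111) and for Zdhhc22 -4.48 (0.00514), each with an adjusted p of 1. These 4 genes lead the comparison of the 8 described libraries, which are also part of the cocaine side of this contrast. Their differences and p-values are therefore not independent of how the genes were picked. With the set A libraries alone edgeR called no gene either, and 1473 genes had an unadjusted p under 0.05, 1295 with a positive and 178 with a negative difference. Saline withdrawal has only 2 libraries in set A. They had 70.7% and 52.7% of uniquely aligned reads in no gene and Malat1 shares of 6.48% and 2.83%. The part of this in the differences was not tested. Of these 2, 1 (number 1797) was counted with the gene table of set B and held 3279457 gene counts. Its title does not mark it as a copy. It was placed in set A here because 1797 falls among the lower numbers given in the titles of the other set A libraries. The fit of set A libraries alone and the term for library set both rest on that placement. The term for library set therefore does not separate the gene tables.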

How the data were processed

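The 8 libraries were grouped by their titles, and the set by the library numbers there; titles mark each of the 8 as a copy of a lower number, with no reason given. The authors deposited raw counts, 1 value per gene symbol. The submitters' processing notes name STAR 2.0.0e, HTSeq and the build mm10; the annotation release, the strand setting and any filters are not given. The 5 closing entries that name no gene, and an empty entry named unknown (0% of counts), stayed out of library sizes. The shares of reads in no gene use uniquely aligned reads.

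In R 4.3.3, edgeR 4.0.16 (TMM factors, filterByExpr, quasi-likelihood F test, two-sided, Benjamini-Hochberg) was fitted to the 8 libraries with group as the only term; 13572 of 32657 genes passed the filter. CPM levels use library sizes scaled by TMM. DESeq2 1.42.0, limma 3.58.1 (voom), other scalings, filters, sample sets, a covariate, a replicate block and each library left out were tried. The code was tested on simulated data. Counts of 0 were judged by counting error only. The intervals of log2 fold changes come from the edgeR fit and include the spread between libraries. No pair of libraries in a group was identical (chi-square per degree of freedom 41.3 to 261). Named genes follow a rule: the 5 lowest p per direction among genes that average 5 CPM or more and have no clone name, 7 fixed genes, and up to 3 lowest-p members of each list; not all of these are printed. The genes, lists and rule were chosen with earlier results of these data known. Gene coordinates are from GENCODE M21 (GRCm38, the same build as mm10).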

Additional observations from a re-analysis of the deposited data

Results flagged for a closer look

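In a group of 4 libraries, a value was taken as lying apart when its gap to the nearest of the others exceeded Dixon's 95% critical share of the group's range. Chance gives about 1 such value in 20 groups of normally distributed values. Of the 98 groups examined, 13 had one. Many of these groups are CPM values of genes chosen from these data, so the count cannot be set against that rate.

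Withdrawal replicate 1 held 5 of them. It had 60.7% of uniquely aligned reads in no gene, against 28.7% to 30.9% in the other withdrawal libraries. Its share of ambiguous reads was 1.18%, against 2.31% to 2.43%, and its Malat1 share was 3.997%, against 0.556% to 0.805%. It had 7720 summed CPM of endothelial and mural markers, against 651.6 to 1533, and 100.1 CPM of Dagla, against 260.8 to 278.1. Withdrawal replicate 2 held 3: Shank3 at 469 CPM, Maml3 at 78.3 CPM and Drd3 at 48.8 CPM, the others reaching 346, 34.1 and 5.61 CPM.

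Among nonescalating libraries, Pvt1 reached 22.8 CPM in replicate 2, against 3.06 to 5.95 CPM in the others, and Phf5a 56.0 CPM in replicate 1, against 20.6 to 25.4 CPM. Arc reached 73.7 CPM in replicate 4, against 14.4 to 23.3 CPM, and Ngfr 0.197 CPM in replicate 4, with 0 in the others. Microglia and macrophage markers summed to 42.6 CPM in replicate 3, against 13.5 to 16.4 CPM.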

How the results depend on the processing

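Of 605 values of the 34 named genes under other settings, 584 kept their direction and side of the threshold, and 19 values of 3 genes changed sign, none of them called. Every setting reuses these libraries, most of the genes were picked from them, and none was called in the main fit. These counts are therefore no independent check. Adora2a was -0.12 in the fit of 23 libraries. Penk was -0.16 in that fit, -0.054 with the replicate block, and from -0.15 to 0.27 in leave-one-out fits (-0.15 without replicate 3 of either group). Drd1, near 0 throughout, was 0.0019 with DESeq2, 0.042 with voom, 0.00056 with RLE factors, 0.013 with 14 libraries, 0.019 with reads in no gene as covariate, 0.019 with the replicate block and from -0.17 to 0.15 in leave-one-out fits. Calls stayed at 0 for all settings except DESeq2, which called 2 genes (Zdhhc22, adjusted p 0.0125, and Particl, 0.0193). DESeq2 called 611 in set B against nonescalating, 955 between sets and 4 for the interaction, against 17, 6 and 0 with edgeR. Without withdrawal replicate 1, the group difference was -1.86 percentage points for reads in no gene, 0.00686 for ambiguous reads and -0.400 for the Malat1 share; the leave-one-out ranges were -1.86 to 10.2, -0.468 to 0.00686 and -0.400 to 0.747. The causes were not tested.

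Same-numbered libraries had residual correlations of -0.427, 0.168, -0.399 and -0.211. Those of other pairs ran from -0.504 to 0.700, the highest between withdrawal replicate 1 and nonescalating replicate 3. These values do not settle whether same-numbered libraries were paired. The replicate block called 0 genes, with 56 at an unadjusted edgeR p under 0.05. Leaving out 1 library gave 125 to 644 such genes, the most without withdrawal replicate 1, and reads in no gene as covariate 746. Depth limits genes of few counts such as Ngfr, and the spread between libraries limits most others.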

Other observations

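Some genes of the lists could not be compared. Of the 31 heat shock genes 30 and of the 77 ribosomal protein genes 76 were tested, and Rpl26 had 0 counts in all 8 libraries.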
